A study of Mus musculus with 2 samples.

Results

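Klf2, Klf3, S1pr1, S1pr4, Ccr7 and Ccr9 belong to the genes that equip naive T cells to circulate between blood and lymphoid organs. These 6 genes were chosen by symbol from 32285 features, and all 6 were measured in both libraries. Klf2 encodes a Krüppel-like transcription factor that keeps T cells quiescent and drives transcription of S1pr1, the sphingosine-1-phosphate receptor through which T cells leave thymus and lymph nodes. Klf3 encodes a related Krüppel-like factor that acts mainly as a repressor, and S1pr4 a second lymphocyte receptor for sphingosine-1-phosphate. Ccr7 encodes the chemokine receptor that guides cells into lymph nodes, and Ccr9 the receptor for CCL25, a chemokine of thymus and small intestine. T cells that settle in a tissue as residents are known to switch Klf2 and S1pr1 off. Their levels and joint detection were described in lung γδ T cells, T cells with a receptor of γ and δ chains, that were grouped by the γ chain variable gene they carried and by 4 further transcripts.

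The data were single-cell RNA counts from 2 droplet libraries of sorted lung γδ T cells, 1 library per group. The WT library held Vγ1-negative γδ T cells of C57BL/6NCrl mice. The KO library held Vγ1+ γδ T cells of mice labelled B6.Cg-Tcrgtm1lku(B6.Vg4-/-Vg6-/-), a germline deletion of the Vγ4 and Vγ6 chains. All mice were uninfected and 5-7 weeks old, and how many were pooled for a library is not given in the sources used here. Genotype and sort gate changed together, so their parts in any difference between the libraries cannot be told apart. With 1 library per group there was no replicate and no test. Levels are UMIs summed over cells and scaled to a common total of UMIs (CPM), and every range in parentheses is a 95% interval that covers counting error only, not differences between animals or preparations.

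The WT library kept 2077 T cells with a median of 3323 UMIs and the KO-labelled library 6091 with a median of 3520 UMIs. The 2 libraries shared 23 cell barcodes. Trdc, the δ chain constant gene, had a UMI in 43.5% of WT cells and 44.7% of KO-labelled ones, and Cd3e, a chain of the T cell receptor complex, in 91.8% and 92.2%. The deleted genes were checked first. Tcrg-V6 stood at 313 CPM in WT cells, 30.1% of which had a UMI, and had 0 UMIs in the 6091 KO-labelled cells. The upper limit for the share of such cells with a detected UMI, taken as 3 cells, was 0.0493%. Tcrg-V4 went against the label, at 86.3 CPM in WT and 48.5 CPM, or 1148 UMIs in 14.5% of cells, in the KO-labelled library. Tcrg-V1, the gate itself, was at 30.8 CPM in 8.57% of WT cells and 209 CPM in 43.7% of the KO-labelled cells. Y-linked transcripts were found in 24.2% of WT cells and 0.476% of the KO-labelled cells, so the sexes pooled differed as well. Leaving those cells out changed no direction of a member between the libraries. Male cells without a detected Y-linked UMI stay in after that step, so it cannot remove a sex difference. The part of sex was not tested.

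Mouse promoter sequences from RefSeq (build GRCm38.p6) are shown for Klf2 and Ccr9, the members that differed most between the libraries and between WT Tcrg-V groups, respectively. Each is 200 bases that end 50 bases before the start in RefSeq's own annotation, read 5′ to 3′ on the gene's strand. Capitals mark 2 motifs that were searched on both strands. They are CTA and TAG with any 4 bases between, the frame of the MEF2 site through which Klf2 is known to be induced, which reads the same on either strand, and CACCC, the core that Krüppel-like factors bind. The Klf2 window lies at chr8:72318812-72319011 on the plus strand and the Ccr9 window at chr9:123766961-123767160 on the plus strand.
Klf2: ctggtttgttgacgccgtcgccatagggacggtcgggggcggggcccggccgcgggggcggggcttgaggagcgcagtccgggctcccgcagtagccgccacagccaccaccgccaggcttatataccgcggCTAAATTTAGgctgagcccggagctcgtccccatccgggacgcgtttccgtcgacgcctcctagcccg
Ccr9: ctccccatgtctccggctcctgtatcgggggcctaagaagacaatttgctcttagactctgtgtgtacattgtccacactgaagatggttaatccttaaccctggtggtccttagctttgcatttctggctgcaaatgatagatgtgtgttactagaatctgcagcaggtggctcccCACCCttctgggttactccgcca
The Klf2 window held 1 match to the MEF2 frame and none to CACCC, with 70.5% G and C. The Ccr9 window held 1 CACCC and no MEF2 frame, with 50.0% G and C. Of 32817 promoter windows of the same length, 2.58% held the MEF2 frame and 44.4% CACCC, and their median G and C content was 51.5%. Matches of the S1pr4 window numbered 0 and 1 and those of the Klf3 window 0 and 4, in the same order. S1pr1 and Ccr7 are named only.

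On GRCm38 (mm10), in the GENCODE annotation, Klf2 spans 8:72319033-72321656 on the plus strand, S1pr1 3:115710433-115715072 on the minus strand and Ccr7 11:99144196-99155077 on the minus strand. Ccr9 spans 9:123678439-123784330 on the plus strand, S1pr4 10:81497747-81500132 on the minus strand and Klf3 5:64803388-64832901 on the plus strand. These spans start at other positions than the RefSeq starts behind the promoter windows, and the Ccr9 window lies inside the GENCODE span of Ccr9. All 6 are protein-coding. Ccr9 shares its span with 6 annotated genes, 2 of them on its strand, and Klf3 with 2, 1 of them on its strand, so UMIs in the shared stretches could not be assigned with certainty. No other gene overlaps Klf2, S1pr1, Ccr7 or S1pr4.

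Klf2 was the member that set the libraries apart. It stood at 155 CPM (146 to 164) in WT and 727 CPM (716 to 738) in KO-labelled T cells, 4.69-fold higher in the latter, a log2 ratio of 2.23 (2.14 to 2.32). Klf3 was at 133 CPM (124 to 141) and 137 CPM (132 to 141), a log2 ratio of 0.04 (-0.06 to 0.15) whose interval spans 0. The 2 Krüppel-like factors thus did not go together between the libraries. S1pr1 was at 210.3 CPM (200 to 221) in WT and 341 CPM (333 to 348) in KO-labelled cells, a log2 ratio of 0.70 (0.62 to 0.77). S1pr4 was at 131 CPM (123 to 139) and 173 CPM (168 to 179), a log2 ratio of 0.41 (0.31 to 0.51). Both receptors for sphingosine-1-phosphate were higher in KO-labelled cells by less than 1 log2 unit. Ccr7 was at 285 CPM (273 to 298) and 515 CPM (506 to 525), a log2 ratio of 0.85 (0.79 to 0.92). Ccr9 was at 43.8 CPM (39.2 to 48.8) and 72.2 CPM (68.9 to 75.7), a log2 ratio of 0.72 (0.55 to 0.90). Past 1 log2 unit, 1 of 6 members was higher and 0 lower in the KO-labelled library, against 3.22% of all 11856 genes with at least 30 UMIs higher and 5.04% lower. The median gene had a log2 ratio of 0.04. Among cells below their library's median share of stress genes, the log2 ratio was 2.08 for Klf2, 0.42 for Ccr7 and -0.12 for Klf3, and with the 5% of cells with most UMIs left out it was 1.06 for Ccr7.

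Detection gave the same picture. After each cell was thinned to 2000 UMIs, Klf2 had a UMI in 23.8% (21.9 to 25.8) of 1869 WT cells and 59.5% (58.2 to 60.8) of 5464 KO-labelled cells, and in 32.4% and 69.6% before thinning. S1pr1 was detected in 29.2% of the WT and 45.5% of the KO-labelled cells, Ccr7 in 21.9% and 42.6%, S1pr4 in 21.5% and 28.6%, Klf3 in 20.9% and 22.3%, and Ccr9 in 6.90% and 11%. Thinning left out 208 WT and 627 KO-labelled cells with fewer UMIs. As a level of stray RNA, the myeloid-marked cells that had been set aside were read in the same way. In 36 of them in the WT library, with a median of 3599.5 UMIs, Ccr9 had no UMI, Ccr7 had 1 and S1pr1 had 2. In 22 of the KO-labelled library, with a median of 2030.5 UMIs, Ccr9 and Ccr7 had none and S1pr1 had 3. Klf2 and Klf3 are also expressed by myeloid and B cells, so these cells give no background for them.

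The γ chain transcript split the WT library first. The 425 WT cells with UMIs of Tcrg-V6 alone had the lowest level of 5 of the 6 members among the 7 WT Tcrg-V groups, S1pr4 being lower in the 42 cells with Tcrg-V5, with overlapping intervals. Vγ6 T cells are known as IL-17-producing cells that settle in lung and skin around birth. Klf2 was at 56.8 CPM (45.5 to 70.1) in the Tcrg-V6 group and 201 CPM (178 to 226) in the 376 cells with Tcrg-V4 alone. Ccr7 was at 80.4 CPM (66.8 to 95.9) and 318 CPM (289 to 349). Ccr9, the gene of the gut and thymus receptor, was at 9.15 CPM (5.00 to 15.3) and 75.0 CPM (61.4 to 90.7). The Tcrg-V4 group thus exceeded the Tcrg-V6 group most in Ccr9, by a log2 ratio of 3.04 (2.23 to 3.96). The log2 ratio was 1.98 (1.69 to 2.28) for Ccr7, 1.82 (1.47 to 2.19) for Klf2, 1.57 (1.27 to 1.87) for S1pr1 and 1.45 (1.06 to 1.86) for Klf3. S1pr4, at 0.42 (0.11 to 0.73), was the member that differed least. Past 1 log2 unit 5 of 6 members were higher in Tcrg-V4 cells, against 4.91% of all genes. In the 1181 WT cells without any UMI of the 8 non-T genes, S1pr4 had a log2 ratio of -0.046.

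Across the WT Tcrg-V groups the order of levels was similar for Klf2 and S1pr1, with Tcrg-V6 at the bottom and Tcrg-V1 or Tcrg-V7 at the top. Klf2 was at 131 CPM with Tcrg-V5, 201 with Tcrg-V4, 242 with Tcrg-V1 and 269.6 with Tcrg-V7. The intervals of each of these neighbours overlapped. S1pr1 was at 83.6 CPM (69.8 to 99.4) with Tcrg-V6, 248 with Tcrg-V4 and 358 CPM (294 to 432) with Tcrg-V1. Ccr7 was at 94.7 CPM with Tcrg-V5 and 497 CPM (421 to 584) with Tcrg-V1. Only 78 WT cells carried Tcrg-V1, 42 Tcrg-V5 and 29 Tcrg-V7, in a library sorted as Vγ1-negative. The 869 WT cells with no Tcrg-V UMI were at 186 CPM of Klf2 and 400.2 CPM of Ccr7, between the Tcrg-V6 and Tcrg-V1 groups.

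Of the KO-labelled cells with a single Tcrg-V gene, most had Tcrg-V1 or Tcrg-V4. The 2024 cells with Tcrg-V1 alone were at 678 CPM (661 to 695) of Klf2 and the 336 cells with Tcrg-V4 alone at 696 CPM (652 to 742), a log2 ratio of 0.04 (-0.06 to 0.14). S1pr1 was at 322 and 381 CPM, a log2 ratio of 0.24 (0.10 to 0.38). Set against WT cells with Tcrg-V4, the KO-labelled Tcrg-V1 cells were higher in Klf2 by a log2 ratio of 1.75 (1.58 to 1.93) and in Ccr7 by 0.62 (0.48 to 0.76). Klf3 and Ccr9 were near-equal in that comparison, at -0.01 (-0.23 to 0.22) and -0.03 (-0.33 to 0.28). In it 1 of 6 members passed 1 log2 unit upward, against 4.93% of all genes. Against WT Tcrg-V6 cells the same cells were higher in 5 of 6 members past 1 log2 unit, with 11.6% of all genes, Klf2 at 3.58 (3.27 to 3.90) and Ccr9 at 3.01 (2.25 to 3.89). The WT library was sorted as Vγ1-negative, so its 78 cells with Tcrg-V1 alone are not a sorted Vγ1 population. Why they held Tcrg-V1 UMIs was not tested. Between the cells with Tcrg-V1 alone in each library, the difference lay in the Krüppel-like factors, Klf2 at 1.49 (1.15 to 1.84) and Klf3 at -0.78 (-1.13 to -0.41). Ccr7 was at -0.03 (-0.26 to 0.22) and S1pr1 at -0.15 (-0.43 to 0.14) between these cells.

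**Figure D1:**
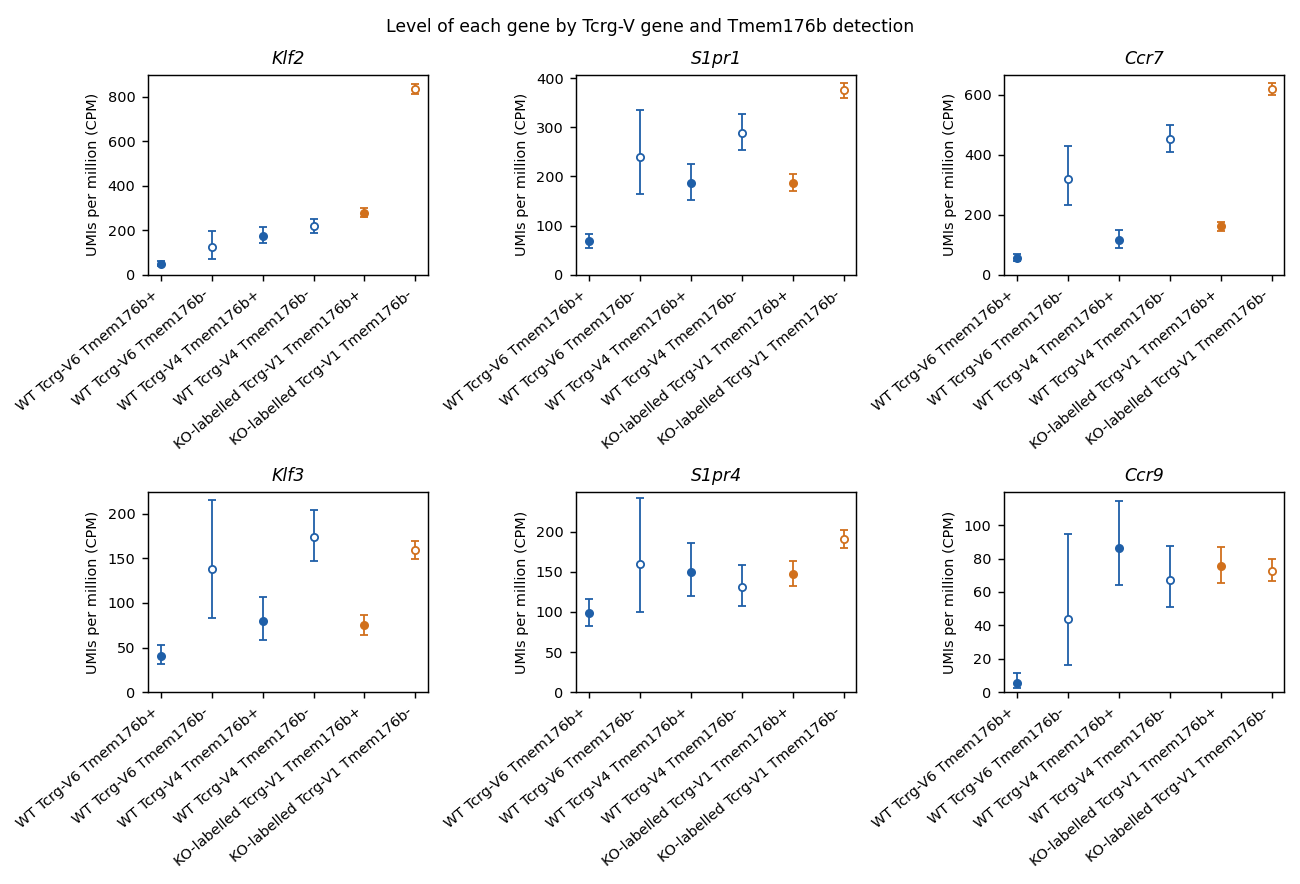
Level in CPM of each member in cells grouped by Tcrg-V gene and by detection of Tmem176b (filled points with, open points without a Tmem176b UMI), WT in blue and KO-labelled in orange, with bars for the 95% interval of counting error. The WT Tcrg-V6 cells with Tmem176b lie lowest in Ccr9, at 5.74 CPM, and the KO-labelled Tcrg-V1 cells without Tmem176b reach 836 CPM of Klf2.

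Cells with Tmem176b, which encodes a membrane protein abundant in IL-17-producing γδ T cells, were low in the members in both libraries. Ccr7 was at 100 CPM (90.1 to 111) in the 1008 WT cells with a Tmem176b UMI and 469 CPM (447 to 491) in the 1069 without, and at 167 and 631 CPM in 1336 and 4755 KO-labelled cells. Its log2 ratio was -2.23 (-2.39 to -2.07) in WT and -1.92 (-2.01 to -1.82) in KO-labelled cells, the largest of the 6 in each. Klf2 had ratios of -1.0 (-1.18 to -0.82) and -1.51 (-1.58 to -1.44). S1pr1 had -1.22 (-1.38 to -1.06) and -1.01 (-1.10 to -0.92), and Klf3 -1.37 (-1.57 to -1.17) and -0.94 (-1.08 to -0.80). The lymph node and exit receptors and both factors were thus lower with Tmem176b in either library. S1pr4 was lower by less, at -0.31 (-0.49 to -0.12) and -0.32 (-0.43 to -0.22). Ccr9 stood apart from the rest, at -0.40 (-0.73 to -0.08) in WT and 0.18 (0.03 to 0.34) in KO-labelled cells. In WT cells 3 of 6 members (Klf3, S1pr1 and Ccr7) were lower past 1 log2 unit, against 7.38% of all genes, and Klf2 lay just short of it. In KO-labelled cells 3 of 6 (Klf2, S1pr1 and Ccr7) were, against 5.86%.

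Stress genes were higher in cells with Tmem176b. The 12 immediate-early and heat shock genes, which tissue digestion is known to induce, summed to 8607 CPM in WT cells with Tmem176b and 5397 CPM without, and to 7177 and 4689 CPM in KO-labelled cells. Among cells below their library's median share of these genes, the ratio for Ccr7 was -1.91 in WT and -1.47 in KO-labelled cells, and that for Klf2 in KO-labelled cells was -1.11. S1pr1 in KO-labelled cells was at -0.68 there.

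Splitting each Tcrg-V group by Tmem176b, a split added after the data were seen, set Tcrg-V6 and Tmem176b side by side. Of the WT Tcrg-V6 cells 378 had Tmem176b, and they stood at 50.3 CPM (39.2 to 63.5) of Klf2, 68.2 CPM of S1pr1, 56.7 of Ccr7 and 5.74 CPM (2.48 to 11.3) of Ccr9. The 47 without it stood at 123 CPM (71.8 to 197) of Klf2, 239 CPM of S1pr1, 319 of Ccr7 and 43.5 CPM (16.0 to 94.7) of Ccr9. Past 1 log2 unit 5 of 6 members were lower with Tmem176b, against 6.96% of all genes. The exception was S1pr4, at -0.70 (-1.35 to 0.02). Ccr9 was counted among the 5 although it had fewer than 30 UMIs in the WT Tcrg-V6 cells. The share of all genes was taken only over genes with at least 30 UMIs, so for Ccr9 the count and the share follow different rules. Among WT cells with Tmem176b, those with Tcrg-V4 were still higher than those with Tcrg-V6 in 4 of 6 members past 1 log2 unit, against 2.42% of all genes. Ccr9 led, at 86.5 CPM (64.0 to 114) and a log2 ratio of 3.91 (2.82 to 5.20), followed by Klf2 at 1.8 (1.34 to 2.26), S1pr1 at 1.46 (1.04 to 1.87) and Ccr7 at 1.04 (0.54 to 1.53). Tcrg-V4 cells of the WT library held Ccr9 whether or not Tmem176b was detected, 86.5 and 67.3 CPM, while their Ccr7 was 117 and 452 CPM.

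The same division separated the KO-labelled Tcrg-V1 cells. With Tmem176b (542 cells) Klf2 was at 279 CPM (259 to 301) and without it (1482 cells) at 836 CPM (814 to 859), and Ccr7 was at 161 and 618 CPM. Ccr9 was at 75.5 and 72.8 CPM, with no difference beyond counting error. Against WT Tcrg-V4 cells of the same Tmem176b status, Klf2 in these cells had a log2 ratio of 0.68 (0.37 to 0.99) with Tmem176b and 1.94 (1.72 to 2.16) without. In cells with Tmem176b the interval of the other members in that comparison spanned 0 except for Ccr7, at 0.47 (0.09 to 0.86). In cells without Tmem176b S1pr4 was at 0.54 (0.26 to 0.83), Ccr7 at 0.45 (0.30 to 0.60) and S1pr1 at 0.38 (0.19 to 0.58).

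Ly6c2, which encodes a surface protein of memory and effector T cells, marked cells that were low in Ccr9. Ccr9 was at 19.8 CPM (13.8 to 27.5) in 405 WT cells with Ly6c2 and 51.3 CPM (45.6 to 57.5) in 1672 without, a log2 ratio of -1.38 (-1.93 to -0.87). In KO-labelled cells it was at 27.0 CPM (23.1 to 31.4) in 1535 and 88.6 CPM (84.2 to 93.1) in 4556 cells, a log2 ratio of -1.71 (-1.95 to -1.48). Against all cells without Ly6c2, the other members were not lower beyond counting error in either library. Ccr7 was higher with Ly6c2 in WT cells, at 1.09 (0.97 to 1.22), and at -0.03 (-0.09 to 0.02) in KO-labelled cells. Klf2 was at 0.64 (0.46 to 0.82) and 0.22 (0.18 to 0.27), and S1pr1 at 0.59 (0.43 to 0.74) and 0.00 (-0.07 to 0.07). Past 1 log2 unit 1 member of 6 was higher in WT cells (Ccr7, 2.58% of all genes) and 1 lower (Ccr9, 7.90% of all genes), and 1 lower in KO-labelled cells (Ccr9, 4.41% of all genes). The stress genes summed to 4646 CPM with Ly6c2 and 7724 CPM without in WT cells and to 4698 and 5534 CPM in KO-labelled cells, and in WT cells below the median share of these genes Ccr7 was at 0.68. The WT cells without Ly6c2 include most cells with Tmem176b, which are low in Ccr7. Cells with Ly6c2 only were therefore also set against cells with none of the 4 markers. In KO-labelled cells Ccr7 then had a log2 ratio of -0.34 (-0.42 to -0.26), S1pr1 of -0.21 (-0.30 to -0.12) and Ccr9 of -1.92 (-2.27 to -1.59), while Klf3 was at 0.14 (0.01 to 0.28). In WT cells Ccr9 was at -1.71 (-2.51 to -0.97) and Ccr7 at 0.20 (0.03 to 0.37) in that comparison.

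Cd8b1, the gene of the CD8β chain, marked the cells with most Ccr7. Ccr7 was at 837 CPM (747 to 935) in 81 WT cells with Cd8b1 and 256 CPM (244 to 268) in 1996 without, and at 913 CPM (883 to 944) and 440.3 CPM (431 to 449.6) in 909 and 5182 KO-labelled cells. The log2 ratio was 1.71 (1.53 to 1.88) in WT and 1.05 (0.99 to 1.11) in KO-labelled cells. Klf2 went the same way, at 0.77 (0.46 to 1.08) and 0.74 (0.69 to 0.79), as did S1pr1 at 0.33 (0.02 to 0.63) and 0.31 (0.22 to 0.39). Ccr9 was at 0.98 (0.40 to 1.52) and 0.51 (0.34 to 0.68). S1pr4 was higher with Cd8b1 in WT cells, at 0.59 (0.22 to 0.94), and lower in KO-labelled cells, at -0.20 (-0.32 to -0.07). Past 1 log2 unit 1 of 6 members was higher in each library, against 4.70% of all genes in WT and 0.777% in KO-labelled cells. Stress genes summed to 4733 CPM in WT cells with Cd8b1 and 7113 CPM without, 6 of 12 being lower past 1 log2 unit (median -1.12), and to 5532 and 5270 CPM in KO-labelled cells, with 4 of 12 lower (median -0.58). Of all genes, 10.1% were lower past 1 log2 unit with Cd8b1 in WT and 7.17% in KO-labelled cells. Below the median share of these genes the log2 ratio of Ccr7 was 1.18 in WT and 0.99 in KO-labelled cells. That of S1pr1 was 0.01 in WT and 0.32 in KO-labelled cells there. In WT cells without a UMI of the 8 non-T genes S1pr1 was at 0.16. Of the αβ T cell genes, Cd8a, the gene of the chain that pairs with CD8β, was higher with Cd8b1, at 3.07 in WT and 2.66 in KO-labelled cells. Trbc2 was at -0.04 and 0.09, and the part of αβ T cells in the Cd8b1 differences was not tested.

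Cd24a, the gene of the heat-stable antigen that immature γδ T cells carry at a high level, marked cells with more of both chemokine receptors. Ccr7 was at 691 CPM (634 to 751) in 155 WT cells with Cd24a and 237 CPM in 1922 without, a log2 ratio of 1.54 (1.40 to 1.68), and at 0.46 (0.40 to 0.52) in KO-labelled cells (815 and 5276 cells). Ccr9 was at 95.2 CPM (74.9 to 119) and 37.8 CPM in WT cells, a log2 ratio of 1.33 (0.94 to 1.71), and at 0.62 (0.46 to 0.79) in KO-labelled cells. Both receptors passed 1 log2 unit in WT cells, 2 of 6 members against 5.05% of all genes. S1pr1 was at 0.71 (0.51 to 0.91) and 0.32 (0.24 to 0.40), and S1pr4 at -0.05 (-0.36 to 0.25) and -0.01 (-0.13 to 0.11). Klf2 was at 0.54 (0.29 to 0.77) in WT cells, and at -0.017 in those without a UMI of the 8 non-T genes. Stress genes were lower in sum with Cd24a, 4542 against 7283 CPM in WT and 4463 against 5478 CPM in KO-labelled cells. Past 1 log2 unit 5 of 12 were lower in WT and 1 of 12 in KO-labelled cells, against 7.97% and 4.02% of all genes. Among WT cells below the median share of these genes Ccr7 was at 1.29 and Ccr9 at 1.14. The 5 genes of αβ T cells summed to 1601 CPM with Cd24a and 825 without in WT cells and to 1611 and 1083 CPM in KO-labelled cells, mostly from the β chain constant genes Trbc1 and Trbc2. Trbc1 was higher in WT cells by a log2 ratio of 1.34 and Trac, the α chain constant gene, was at -0.67 (-1.53 to 0.09). The part of αβ T cells in the Cd24a differences was not tested.

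**Figure D2:**
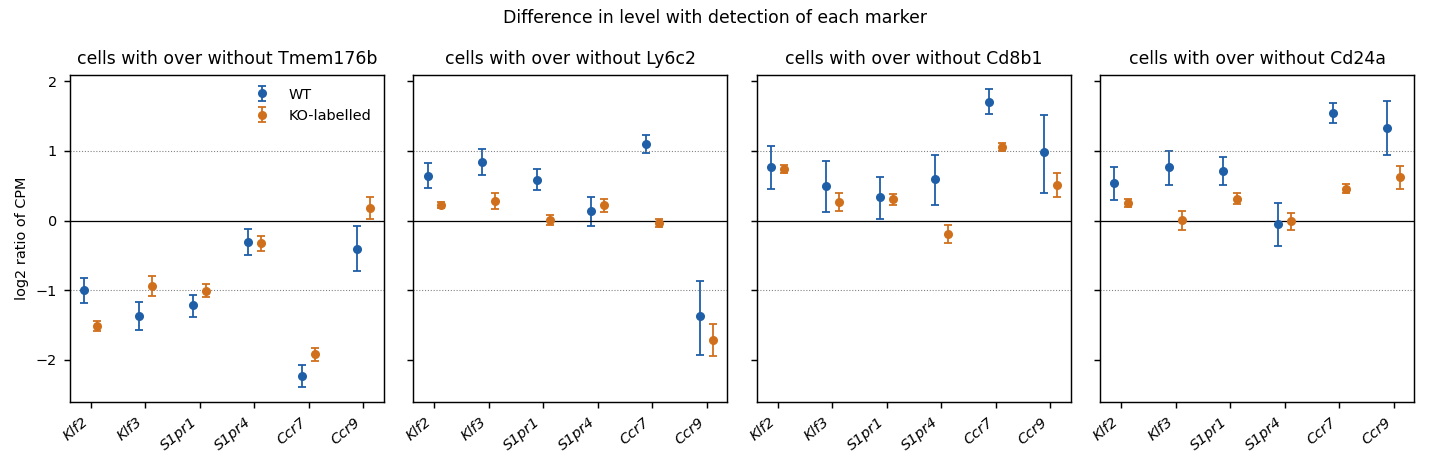
Log2 ratio of each member's level between cells with and without a UMI of Tmem176b, Ly6c2, Cd8b1 and Cd24a, WT in blue and KO-labelled in orange, with the 95% interval of counting error and dotted lines at 1 log2 unit. Ccr7 is lowest with Tmem176b (-2.23 in WT) and highest with Cd8b1 (1.71 in WT), and Ccr9 lies well below 0 with Ly6c2 (-1.71 in KO-labelled cells).

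Since these markers overlap, the cells were sorted into 6 exclusive states, with 1 of the 4 transcripts only, with none or with 2 or more. Tmem176b alone marked 46.1% of the WT cells and 17.9% of the KO-labelled ones, and none of the 4 was found in 26.7% and 36.2%. Within each library Klf2, Klf3, S1pr1, S1pr4 and Ccr7 were lowest in cells with Tmem176b only and Ccr9 in cells with Ly6c2 only. Klf2 in WT cells stood at 97.0 CPM (86.8 to 108) with Tmem176b only, 182 CPM with none, 207 with Ly6c2, 208 with 2 or more, 224 with Cd24a and 329 CPM (239 to 441) with Cd8b1. From none to Cd8b1, the intervals of neighbours in that order overlapped. In KO-labelled cells Klf2 stood at 216 CPM (203 to 229.8) with Tmem176b only, between 801 and 859.9 CPM in the Ly6c2, none, Cd24a and 2 or more states, whose neighbours overlapped, and at 1144 CPM (1096 to 1192) with Cd8b1 only. Cells with Cd8b1 only thus lay above and cells with Tmem176b only below the rest. S1pr1 in KO-labelled cells was at 166 CPM (155 to 179) with Tmem176b only, 341 CPM (323 to 359) with Ly6c2 only and 436 CPM (407 to 466) with Cd8b1 only. In WT cells it ran from 118 CPM with Tmem176b only to 396 CPM (297 to 518) with Cd8b1 only.

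Ccr7 had the widest span of the 6 over the states, taken as the fold between lowest and highest. In WT cells it was at 53.7 CPM (46.1 to 62.0) with Tmem176b only, 377 CPM with none, 433 with Ly6c2, 608 with Cd24a, 655 with 2 or more and 792 CPM (648 to 958) with Cd8b1, the none and Ly6c2 states overlapping and the last 3 overlapping with their neighbours. In KO-labelled cells the order was Tmem176b at 106 CPM (96.5 to 115), Ly6c2 at 451 CPM, none at 571, 2 or more at 628, Cd24a at 681 and Cd8b1 at 1038 CPM (993 to 1085). There, of the neighbours in the order, 2 or more and Cd24a overlapped. S1pr4 varied least, from 117 to 187 CPM in WT, where all neighbours overlapped, and from 136 to 199 CPM in KO-labelled cells. Ccr9 followed an order of its own. It was at 15.3 CPM (9.18 to 23.8) in WT cells with Ly6c2 only and 20.2 CPM (16.1 to 25) in the KO-labelled ones, and highest with Cd8b1 only, at 157 CPM (97.1 to 239.8) and 114 CPM (99.8 to 131), where it overlapped with the Cd24a state. Klf3 in WT cells ran from 61.0 CPM with Tmem176b only to 261 CPM (182 to 364) with Cd8b1 only, and in KO-labelled cells from 73.2 to 169.8 CPM. Only 38 WT cells had Cd8b1 alone, against 542 KO-labelled cells.

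**Figure D3:**
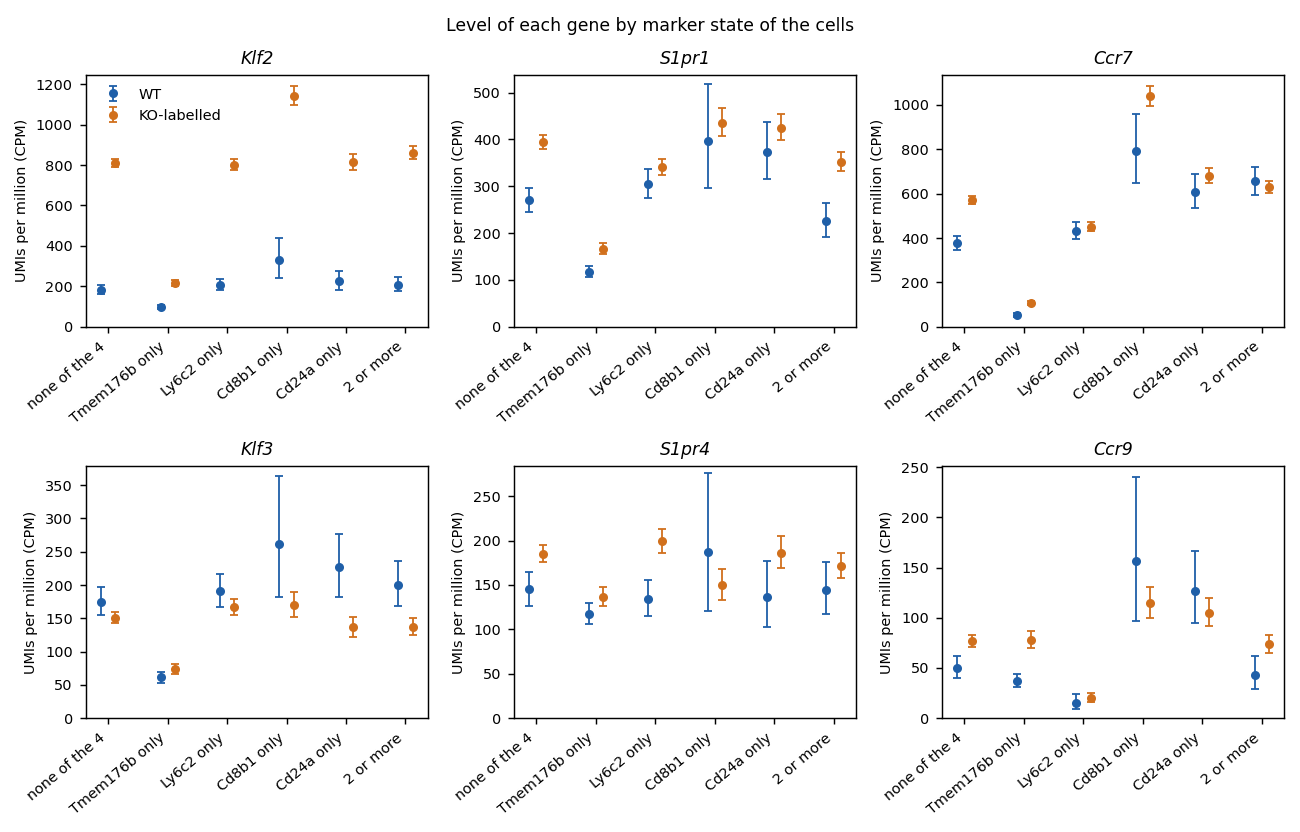
Level in CPM of each member in the 6 exclusive states of marker detection, WT in blue and KO-labelled in orange, with bars for the 95% interval of counting error. Cells with Tmem176b only are lowest for 5 members and cells with Ly6c2 only for Ccr9, and Klf2 lies higher in the KO-labelled library in all 6 states.

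Klf2 was higher in the KO-labelled library in all 6 states. Its log2 ratio was 2.15 (1.98 to 2.33) in cells with none of the 4, 1.95 (1.77 to 2.14) with Ly6c2 only, 1.8 (1.37 to 2.26) with Cd8b1 only, 1.86 (1.56 to 2.18) with Cd24a only and 2.05 (1.81 to 2.30) with 2 or more. It was smallest in cells with Tmem176b only, at 1.16 (0.97 to 1.34). The exit receptor S1pr1 and the lymph node receptor Ccr7 differed by less within a state than Klf2. S1pr1 was at 0.55 (0.40 to 0.70) with none of the 4, 0.50 (0.32 to 0.67) with Tmem176b only and 0.16 (0.00 to 0.33) with Ly6c2 only. Ccr7 was at 0.60 (0.48 to 0.73), 0.98 (0.73 to 1.23) and 0.06 (-0.08 to 0.20) in the same states. Ccr9 was at 1.07 (0.77 to 1.37) with Tmem176b only and its interval spanned 0 with Ly6c2, Cd8b1 or Cd24a only. Klf3 alone had intervals below 0, at -0.21 (-0.40 to -0.02) with none, -0.62 (-1.13 to -0.08) with Cd8b1 only, -0.73 (-1.07 to -0.38) with Cd24a only and -0.55 (-0.83 to -0.27) with 2 or more.

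Past 1 log2 unit 2 of 6 members, Klf2 and Ccr9, were higher in KO-labelled cells with Tmem176b only, against 3.58% of all genes, and 0 of 6 in the cells without a UMI of the 8 non-T genes, where Klf2 was at 0.95. In each of the other 5 states it was Klf2 alone, 1 of 6, against 3.24% of all genes with none of the 4, 3.51% with Ly6c2 only, 10.0% with Cd8b1 only, 4.28% with Cd24a only and 3.77% with 2 or more. The libraries differ in the share of each state. An added alternative, chosen after the data were seen, weighted the KO-labelled states by their shares of WT UMIs. The log2 ratio of the whole libraries was then 1.83 for Klf2, 0.67 for Ccr9, 0.41 for S1pr1, 0.33 for Ccr7, 0.32 for S1pr4 and -0.19 for Klf3, so that the value for Ccr7 fell below 0.85 by more than that for Ccr9 fell below 0.72.

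**Figure D4:**
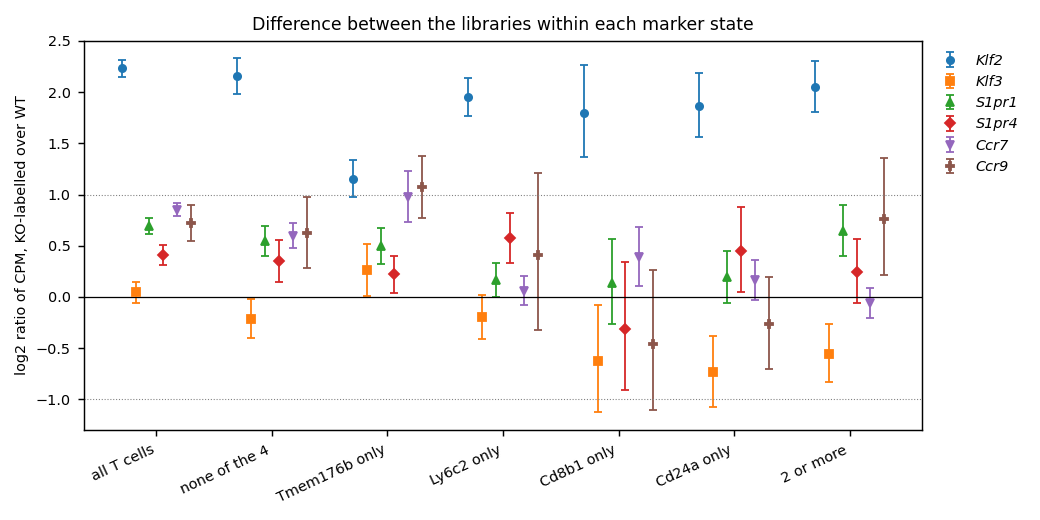
Log2 ratio of each member's level, KO-labelled over WT, within the 6 states and over all T cells, with the 95% interval of counting error and dotted lines at 1 log2 unit. Klf2 lies above 1 in each state, from 1.16 to 2.15, while Klf3 lies below 0 in all states except Tmem176b only.

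The members were found in the same cells more often than their single shares would give. In thinned WT cells S1pr1 was detected in 47.1% (42.2 to 52.0) of cells with Ccr7 and 24.1% (22.0 to 26.4) without, and in KO-labelled cells in 53.5% (51.5 to 55.6) and 39.6% (37.8 to 41.3). Klf2 was detected in 36.8% (32.1 to 41.7) of WT cells with Ccr7 and 20.2% (18.1 to 22.3) without, and in 71.1% (69.2 to 72.9) and 50.9% (49.1 to 52.6) of the KO-labelled cells. With S1pr1 as the partner, Klf2 was in 34.3% (30.3 to 38.5) and 19.5% (17.4 to 21.7) of WT cells and in 69.0% (67.1 to 70.8) and 51.6% (49.8 to 53.4) of the KO-labelled cells. Factor, exit receptor and lymph node receptor thus tended to be detected together in each library. For 14 of 15 pairs in WT and 15 of 15 in KO-labelled cells the joint share exceeded the product of the single shares, by ratios of 0.94 to 1.63 (median 1.36) and 1.02 to 1.2 (median 1.11). At 1000 UMIs per cell it did so for 14 and 13 pairs and at 3000 UMIs for 15 and 13. The ratio is bounded by the shares themselves, which differ between the libraries, so it is not compared between them. The WT exception was Ccr7 with S1pr4, Ccr7 being in 20.6% (16.8 to 24.9) of cells with S1pr4 and 22.3% (20.2 to 24.5) without. For 9 pairs in WT and 8 in KO-labelled cells the partner-positive and partner-negative intervals lay apart, all with the higher share in partner-positive cells.

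The ratio was also taken within each state, where the shares differ as well, so the states are not compared. The median ratio over 15 pairs was 1.24 in WT and 1.05 in KO-labelled cells with none of the 4, 0.99 and 1.07 with Ly6c2 only, 1.04 and 1.01 with Cd8b1 only, and 0.97 and 1.06 with Cd24a only. With Tmem176b only it was 1.5 and 1.42, and the intervals of 6 pairs lay apart in each library. With none of the 4 those of 4 pairs did in each. In the other WT states 0 pairs did. In KO-labelled cells 2 did with Ly6c2 only, 1 with 2 or more and 0 with Cd8b1 only or Cd24a only. Per cell, 0 of the 6 members were detected in 33.5% of the WT and 12.5% of the KO-labelled cells. All 3 of Klf2, S1pr1 and Ccr7 were detected in 4.07% of the WT and 17% of the KO-labelled cells. That full set was most common with Cd8b1 only, at 21.6% of the WT and 32.0% of the KO-labelled cells, and least with Tmem176b only, at 0.331% and 3.18%. In cells with Tmem176b only, none of these 3 was detected in 69.4% of the WT and 56.2% of the KO-labelled cells.

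**Figure D5:**
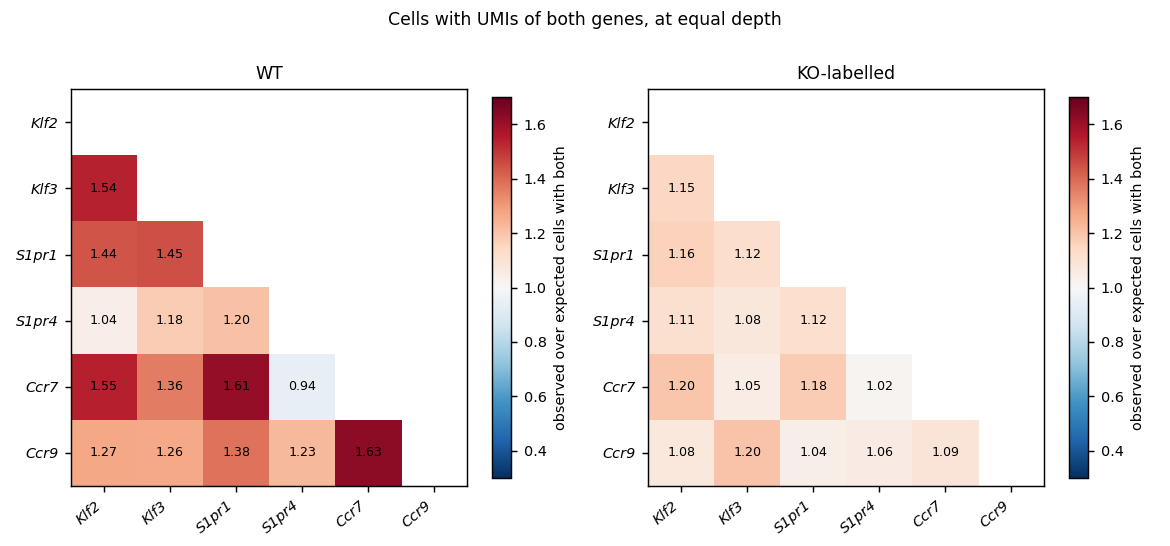
Heat map of the joint detection of member pairs in thinned T cells of the WT (left) and KO-labelled library (right). Each number is the observed joint share divided by the product of the single shares. Values lie above 1 except for Ccr7 with S1pr4 in WT, at 0.94. The grouping markers are not drawn, and the ratio of Ccr9 with Ly6c2 was 0.39 in WT and 0.31 in KO-labelled cells.

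Cells with 4 or more Klf2 UMIs had more S1pr1 and Ccr7 than cells with 0. In KO-labelled cells S1pr1 went from 207 CPM in cells with 0 Klf2 UMIs to 422 CPM in those with 4 or more, and Ccr7 from 278 to 621 CPM. In WT cells S1pr1 went from 169 to 392 CPM and Ccr7 from 218 to 467 CPM. The rise was not steady. WT cells with 3 Klf2 UMIs were higher still, at 423 CPM of S1pr1 and 612 CPM of Ccr7. In KO-labelled cells Ccr7 was highest with 2 Klf2 UMIs, at 645 CPM. Ccr9 went from 65.0 to 81.1 CPM in KO-labelled and from 34.5 to 96.9 CPM in WT cells. Tmem176b went the other way, from 450.0 to 47.5 CPM in KO-labelled and from 597 to 227 CPM in WT cells. Cells with 4 or more Klf2 UMIs were 2.46% of the WT library and 30.2% of the KO-labelled one, and cells with 0 were 67.6% and 30.4%. Cells with 4 or more Klf2 UMIs also had more UMIs in all than cells with 0, with a median of 4151 against 3251 in WT cells and of 3776 against 3453 in KO-labelled cells. In between, KO-labelled cells with 1, 2 and 3 Klf2 UMIs had medians of 3408, 3245 and 3434.

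Genes that went with a member were named by rank among genes detected in at least 10% of the cells of either arm, as a description of these libraries. WT cells with Klf2 were highest, by log2 ratio against cells without it, in Id3 (1.45), a transcription factor of γδ T cells, Il6st (1.31), the shared receptor chain of the IL-6 family, and Nkg7 (1.29), a cytotoxic granule protein. They were lowest in Ly6g5b (-2.06), Jcad (-2.02) and Calca (-1.91), the gene of calcitonin and CGRP. KO-labelled cells with Klf2 were highest in Cd8b1 (1.96) and lowest in Ltb4r1 (-3.06), a leukotriene receptor, Calca (-3.00) and Krt83 (-2.95). Low Calca in cells with Klf2 was shared by both libraries. Cells with S1pr1 were highest in Hdac9 (2.25), Igfbp4 (2.17) and Sox4 (1.92) in WT and lowest in Calca there (-3.57), and in KO-labelled cells lowest in Krt83 (-2.11) and in Atf3 and Fosb (-2.02 and -1.97), both stress genes.

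Cells with Ccr7 were highest in Igfbp4 (3.64), St8sia1 (2.93), Cd24a (2.89) and Cd8b1 (2.52) in WT and in Cd8b1 (2.32) in the KO-labelled library. They were lowest in Calca (-3.13) in WT and in Socs2 (-2.58), Fgl2 (-2.43) and Klrk1 (-2.41), the gene of the activating receptor NKG2D, in KO-labelled cells. Cells with Ccr9 were highest in Aldh2 (2.28), Slfn5 (2.22) and Sox4 (2.18) in WT, and St8sia1 was high in them as in cells with Ccr7 (2.06 in WT and 0.99 in KO-labelled cells). Clnk was among the lowest genes with either receptor in WT, at -2.41 with Ccr9 and -2.66 with Ccr7. Genes of effector cells were among the lowest in cells with Ccr9. In WT they included Klrc1 (-2.62), an NK cell receptor, and the chemokine Ccl5 (-2.09), and in KO-labelled cells Ly6c2 (-2.21) and Ccl5 (-1.72). Over the 6 states of both libraries, 12 groups that share their cells' libraries and depth, the genes most like Klf2 in log2(CPM + 1) were Lbr, Ezr and Arhgef1 (Pearson r of 0.96, 0.95 and 0.95). Those most like S1pr1 were Gramd4, Ifi209 and Klhdc1 (0.98, 0.98 and 0.97). Actn1 and Tdrp were among the 3 most like Ccr7 (0.98 and 0.98), and Mturn, Ocel1 and Matk were the most like Ccr9 (0.97, 0.92 and 0.91). Among the members r over the same 12 groups was 0.92 for S1pr1 with Ccr7, 0.77 for Klf2 with S1pr1 and 0.28 for Klf2 with Ccr9.

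Other genes of cell exit and residency were read between the libraries in the same way. Of 25 further genes of egress and migration, 23 had at least 30 UMIs, and 0 were higher and 3 lower past 1 log2 unit in KO-labelled cells, against 3.22% higher and 5.04% lower of all genes, with a list median of -0.02 against 0.04. The lower genes were Gpr183 (-1.67), an oxysterol receptor that guides lymphocytes, Klf4 (-1.27), a Krüppel-like factor, and Gnai2 (-1.12), the G protein subunit behind chemokine receptors. Genes of tissue residency were lower, 5 of 9 measured past 1 log2 unit (median -1.23), with Rgs1 at -2.03, Bhlhe40 at -1.49, Prdm1 at -1.32 and Itga1 at -1.24, and 1 was higher, Ahr at 1.23, beside the same shares of all genes. Of the stress genes 4 of 12 were lower (median -0.42), against 5.04% of all genes, Egr1 at -1.59 and Fosb at -1.47 among them. Cells with a Tmem176b UMI, low in the members, were high in residency genes, 5 of 9 higher and 2 lower past 1 log2 unit in WT (median 1.52) and 5 of 9 higher in KO-labelled cells (median 1.73), against 6.36% and 6.71% of all genes higher and medians over all genes of -0.10 and -0.08. Cxcr6, a chemokine receptor of resident T cells, led at 2.96 in WT and 3.09 in KO-labelled cells.

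Cells with and without a Klf2 UMI were compared over the same lists. In KO-labelled cells 13 of 16 genes of IL-17-producing γδ T cells were lower past 1 log2 unit in cells with Klf2 than without (median -2.32), Il17f at -3.73 and Il17a at -3.62 among them, and in WT cells 8 of 16 were (median -1.02), against 5.19% and 2.66% of all genes and a median over all genes of 0.03 in each. Residency genes were lower past 1 log2 unit with Klf2 in 5 of 9 and 2 of 9, Cxcr6 at -2.20 and -1.31. Of 8 genes of immature or naive T cells 3 were higher with Klf2 in each library, against 2.01% and 1.63% of all genes, Dapl1 at 1.95 in KO-labelled and 1.61 in WT cells. Egress genes were near 0 in the median in both, 0.01 and 0.05, with Itga4, an integrin subunit of migrating lymphocytes, higher at 1.02 and 1.03. In KO-labelled cells 2 egress genes were lower, Klf4 at -1.91 and Gpr183 at -1.47. Stress genes were lower with Klf2 in 4 of 12 in KO-labelled cells (median -0.76) and 0 of 12 in WT cells (median -0.17), and their part in the differences with Klf2 was not tested.

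Thymocyte transcripts were scarce in these T cells. Summed B cell markers (Cd79a, Cd79b and Ms4a1) were at 11.7 CPM in WT and 10.6 CPM in KO-labelled cells, and myeloid markers (Csf1r, Lyz2 and Cst3) at 140.2 and 117 CPM. All of these are among the 8 non-T genes by which cells were left out, so the filter itself limited both sums. Cst3 alone held 137 CPM in WT and 115 CPM in KO-labelled cells of the myeloid sum. The 4 thymocyte markers summed to 1.34 and 2.36 CPM, and the 5 genes of αβ T cells to 907 and 1169.7 CPM. Lung epithelium and red cell transcripts summed to 2.14 and 21.0 CPM, with 3 of 7 genes of the list measured and all 3 higher in the KO-labelled library. The neutrophil gene of the list, S100a8, had 0 UMIs in both libraries. Scgb1a1 alone held 16.9 CPM in the KO-labelled library, with a UMI in 1.33% of its cells. Between the libraries 15 of 16 genes of IL-17-producing cells were lower in KO-labelled cells (median -2.12), as was 1 of 11 genes of IFNγ-producing cells (median 0.06), against 5.04% of all genes lower and a median over all genes of 0.04. Of genes of immature or naive cells 2 of 8 were higher, Sox4 at 1.39 and Lef1 at 1.03, against 3.22% of all genes. The part of these differences in make-up in the members' levels was not tested beyond the states above.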

How the data were processed

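Lung γδ T cells were sorted and profiled in droplets, 1 library per group, with groups taken from the labels. The deposited matrices hold UMI counts per gene and barcode, which the authors made from mm10 alignments with Cell Ranger 7.0, per the submitters' processing notes and the file headers. The labels and the study's methods name different kits and Cell Ranger versions. No column was set aside (0 columns not used). Of 2520 WT and 6688 KO-labelled barcodes, with 9173997 and 26436826 UMIs, 2505 and 6634 passed the study's filter (over 200 and under 4000 genes, under 10% mitochondrial), more in each library than the study states. T cells had in addition a UMI of Cd3d, Cd3e, Cd3g or Trdc and fewer than 3 UMIs of 8 non-T genes (Cd79a, Cd79b, Ms4a1, Csf1r, Lyz2, H2-Aa, H2-Ab1, Cst3), which left out 428 and 543 cells. Of these 8, Cst3 still had a UMI in 39.1% of the kept WT and 36.6% of the kept KO-labelled cells. In WT the T cell filter kept 2333 of 2906 Tcrg-V6 UMIs and 644 of 715 Tcrg-V4 UMIs, so it fell unevenly on these groups. Doublets were not removed, and leaving out the 5% of cells with the highest Scrublet score was an alternative.

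Levels were CPM of summed UMIs with exact Poisson intervals, ratios had exact conditional intervals, and shares of cells had exact Clopper-Pearson intervals after thinning to 2000 UMIs per cell, with groups set on full counts. Calls were log2 ratios past 1 among genes with at least 30 UMIs in both arms together. The count of members between WT Tcrg-V6 cells with and without Tmem176b included Ccr9 below that minimum. With 1 library per group no p-value was computed. Named genes were the members, the 4 markers, the Tcrg-V genes, up to 4 genes per fixed list by size, the 3 genes closest in pattern by Pearson's r of log2(CPM + 1) among 7815 genes with at least 300 UMIs, and the 5 highest and 5 lowest genes of cells with a member. The text gives some of these, and 1 gene named by the rule is not reported here. The members and lists were chosen with earlier results of these data known. Gene names came from the files, and 32158 of 32285 identifiers matched the annotation. The scripts were tested on simulated data and used Python 3.11.15, numpy 2.4.6, scipy 1.17.1, pandas 2.3.3 and scanpy 1.11.5. Alternatives changed the cell filter, doublets, Y-linked cells, stress share, averaging, centring, UMI minimum, group threshold and thinning depth.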

Additional observations from a re-analysis of the deposited data

Results flagged for a closer look

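Ccr9 moved in opposite directions with Tmem176b in the 2 libraries, with a log2 ratio of -0.40 in WT and 0.18 in KO-labelled cells, and the difference between these ratios was not tested. The WT cells with Tmem176b include 378 with Tcrg-V6 alone and 160 with Tcrg-V4 alone, and among Tcrg-V4 cells alone the WT ratio was 0.36 (-0.22 to 0.94). S1pr4 moved in opposite directions with Cd8b1, at 0.59 in WT and -0.20 in KO-labelled cells, and that difference was not tested either.

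Cells set aside for markers of other cell types also held members. Thinned to the same depth, the 13 B-marked cells of the WT library had Klf2 in 38.5%, S1pr1 in 38.5%, Klf3 in 38.5% and Ccr7 in 84.6%, and the 28 myeloid-marked ones had Klf2 in 42.9% and Klf3 in 35.7%. In the KO-labelled library 8 B-marked cells had Klf2 in 62.5% and S1pr1 in 75.0%, and 11 myeloid-marked cells had Klf2 in 63.6%. These listed shares stand above those of T cells in the same library, though 8 to 28 cells leave wide intervals. Ccr9 had 0 UMIs in all these cells. Only shares resting on more than 3 cells were listed, so low ones could not appear. Of the unlisted ones, Ccr7 in KO-labelled B-marked cells (12.5%) lay below T cells. So did S1pr1 and Ccr7 in WT myeloid-marked cells (3.57% each), while S1pr4 in KO-labelled B-marked cells (37.5%) lay above. No group had 4 or more samples, so no sample could be checked as standing apart from its group.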

How the results depend on the processing

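No paired analysis was possible because the WT and KO-labelled groups each rest on a lone library. Between all T cells of the libraries the log2 ratio of Klf2 ranged over 10 alternatives from 1.83 to 2.30, S1pr1 from 0.41 to 0.78, Ccr7 from 0.33 to 1.06, Ccr9 from 0.67 to 0.81 and S1pr4 from 0.28 to 0.43. The count of members higher past 1 log2 unit went from 1 to 2, with Ccr7, when the 5% of cells with most UMIs were left out or cells were weighted equally. Below the library median of stress gene share, Ccr7 was at 0.42 and Klf3 at -0.12, the count lower in Cd24a only cells went from 0 to 1, and the counts higher with Ly6c2 in WT and with Cd8b1 in KO-labelled cells went from 1 to 0, the former also with groups set on thinned counts. With 0 non-T marker UMIs the count higher with Tmem176b only went from 2 to 0, and Klf2 with Cd24a in WT (-0.017) and S1pr4 between Tcrg-V4 and Tcrg-V6 (-0.046) changed sign. With groups set at 2 UMIs S1pr4 in Cd24a only cells changed sign (-0.0056). The count higher in cells with 2 or more markers went from 1 to 2 without Y-linked cells, with groups at 2 UMIs and on thinned counts. The count higher with Cd8b1 in WT went from 1 to 2 in all filtered cells, with 0 non-T UMIs, without high Scrublet scores, with equal weights and with groups at 2 UMIs, and to 3 without the cells with most UMIs. With no UMI minimum 777 genes were higher and 2057 lower between the libraries, in place of 382 and 598. By Spearman's rho 1 of the 3 genes closest to Klf2, 0 of those closest to S1pr1, 1 for Ccr7 and 1 for Ccr9 were the same. Klf2 was detected in 14.0% of the WT cells at 1000 UMIs and in 27.7% at 3000. The causes were not tested. Counting error was the only error measured, and groups of under 50 cells gave wide intervals.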

Other observations

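Cells with UMIs of more than 1 Tcrg-V gene were in no ratio between Tcrg-V groups, though they were part of the comparisons over all T cells, markers and states. In WT 258 such cells stood at 121 CPM (102 to 143) of Klf2 and 55.9 CPM (43.2 to 71.3) of Ccr9. In the KO-labelled library 643 such cells stood at 545 CPM (520.3 to 570.2) of Klf2, the lowest of its Tcrg-V groups, and 98.0 CPM (87.8 to 109) of Ccr9. The 3044 KO-labelled cells with no Tcrg-V UMI stood at 839 CPM (821 to 857) of Klf2, 602 CPM (587 to 617) of Ccr7 and 60.6 CPM (55.9 to 65.7) of Ccr9, the highest Klf2 and Ccr7 and the lowest Ccr9 of that library's groups.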
